A study of Mus musculus with 8 samples.

Results

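A set of 43 genes for chromatin silencing and chromosome architecture was followed in mature CD8SP thymocytes lacking Ndrg3. The genes were taken by name from the deposited count table, and they encode Polycomb, DNA methylation, deacetylase, remodeller, cohesin and coactivator proteins, listed as candidates for the derepression of a silenced locus. All 43 of them were found among the 47937 genes of the table, and all 43 were among the 14633 genes with enough counts to be tested. CD8SP TCRβ+MHC-I high cells had been sorted from thymi of mice aged 6 to 7 weeks, and their RNA was sequenced from 4 Ndrg3 ctrl and 4 Ndrg3 TKO mice, 1 library per mouse. Ndrg3 TKO mice carried both Ndrg3 alleles floxed (fl/fl), Ndrg3 ctrl mice carried a wild-type and a floxed allele (+/fl), and both groups carried Lck-cre. The control is thus itself Cre-positive with 1 allele open to recombination. Cre was driven by the proximal Lck promoter, which is active in early thymocytes, before the stage that was sorted.

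In thymocytes, as in other cells, a gene that is not used is kept silent by several layers. Polycomb complexes place and read methylation of histone H3 at lysine 27, DNA methyltransferases mark CpG sites, deacetylases strip acetyl groups from histone tails, and H3K9 methyltransferases build a more compact form of chromatin. Remodellers, cohesin, CTCF and SATB1 set which stretches of the chromosome are open and which regulatory elements meet, and the coactivators p300 and CBP acetylate the elements that are in use.

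Ndrg3, the targeted gene, was lower in every Ndrg3 TKO library. Its normalized counts (counts scaled by TMM to the mean library total) were 2294, 2359, 2349 and 2342 in Ndrg3 ctrl against 1460.0, 1402, 1537 and 1601 in Ndrg3 TKO (log2 fold change −0.64, adjusted p = 1.04e-05, edgeR), with the undeleted exons counted too. The libraries held 21126698 to 32668081 counts, so that a floor of 3 counts corresponded to 0.0918 to 0.142 CPM (counts scaled to the library total). By Cd8a and Cd4 the cells matched their label, with Cd8a at 1308 to 1401 CPM and Cd4 at 0.237 to 1.46 CPM. Of 7 immature thymocyte markers, Cd4 among them, 5 were tested and 0 passed the adjusted threshold, with 2 fitted higher and 3 lower in Ndrg3 TKO. Dntt was higher in every Ndrg3 TKO library than in any control (log2 fold change 0.45, unadjusted p = 0.00116, adjusted p = 0.0783, edgeR). This list summed to 22.5 to 35.1 CPM in Ndrg3 ctrl and 26.6 to 38 CPM in Ndrg3 TKO. Y-linked counts were 340.5 to 416 CPM in Ndrg3 ctrl replicate 2 and Ndrg3 TKO replicates 2 and 3 and at most 0.0752 CPM in the others, so the sexes were unequally spread over the groups. Mitochondrial genes took 0.636% to 0.82% of the counts in Ndrg3 ctrl and 0.571% to 0.712% in Ndrg3 TKO. Of 15 mature CD8SP markers 0 passed the adjusted threshold, and 4 had an unadjusted p under 0.05, all with lower values in Ndrg3 TKO. Of the markers of other cells, 6 of 7 for myeloid and dendritic cells and 4 of 4 for erythroid cells stayed under 1 CPM in every library. Of the B cell markers 4 of 6 stayed under 1 CPM in every library. Of them 2 were tested and 0 passed, with Ighm at 7581 ± 563 normalized counts in Ndrg3 ctrl and 7900.4 ± 613 in Ndrg3 TKO (SD, n = 4), and with Cd79b below every control in each Ndrg3 TKO library (log2 fold change −0.43, adjusted p = 0.0529, edgeR). Of the thymic stromal markers 4 of 7 stayed under 1 CPM, and the list summed to 157 to 178 CPM in Ndrg3 ctrl and 148 to 165 CPM in Ndrg3 TKO. Most of this sum was Pecam1, and which cells its counts came from was not tested. Among the NK and NKT cell markers 1 of 3 tested, Klrb1c, passed the test with higher values in Ndrg3 TKO, and the list summed to 30 to 34.1 CPM in Ndrg3 ctrl and 31.9 to 50.9 CPM in Ndrg3 TKO. Most of that sum was Klrd1, at 910.3 ± 58.7 normalized counts in Ndrg3 ctrl and 1129 ± 209 in Ndrg3 TKO. Its groups overlapped (log2 fold change 0.31, unadjusted p = 0.0184, adjusted p = 0.32, edgeR). Klrb1c had normalized counts of 7.76, 18.5, 5.88 and 3.18 in Ndrg3 ctrl, so it met the filter on low counts only through its Ndrg3 TKO libraries. The part of these differences between libraries in the values below was not tested, beyond the fits with a sex term and without the libraries that held Y-linked counts.

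None of the 43 genes passed an adjusted p of 0.05 (edgeR quasi-likelihood test, Benjamini-Hochberg adjusted over all tested genes), where 168 of the tested genes, or 1.15%, did so. At an unadjusted p under 0.05 there were 5 of them, or 11.6%, against 10.9% of all tested genes. Of these, Kdm6b, Smarca4, Ep300 and Setd2 had higher values in Ndrg3 TKO, 4 of 43 where 5.34% of all tested genes did, and Dnmt3b had lower values, 1 of 43 where 5.51% did. DESeq2 gave 0 calls and 5 genes with an unadjusted p under 0.05 as well. With the replicate number as a block in the edgeR fit, 3 of the 43 were called, where 5.47% of all tested genes were. The fitted log2 fold change was above 0 in 25 genes (58.1%; 48.8% of all tested genes) and below 0 in 18. Its median was 0.02, against −0.0033 over all tested genes. The median size, without regard to sign, was 0.08, against 0.09 over all.

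The intervals around these values were narrow. The 95% interval of the log2 fold change lay within ±0.5 for all 43 genes, where this held for 68.6% of all tested genes, and within ±0.25 for 35 of the 43. The lowest bound was that of Dnmt3b, a fold of 0.734, and the highest that of Kdm6b, a fold of 1.34. Standard errors ranged from 0.0451 to 0.128. The sampling depth behind them was high, with raw counts between 121 and 62959 in a single library, and within a group the median coefficient of variation was 5.34% for Ndrg3 ctrl and 4.78% for Ndrg3 TKO libraries, where all tested genes had 9.3% and 8.24%. Since RNA was taken from a sorted population in bulk, fewer cells of a type and less RNA per cell cannot be told apart in any of these values. The values are of transcripts only, and they do not give the amount or activity of the proteins, histone marks or chromosome contacts.

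**Figure D1:**
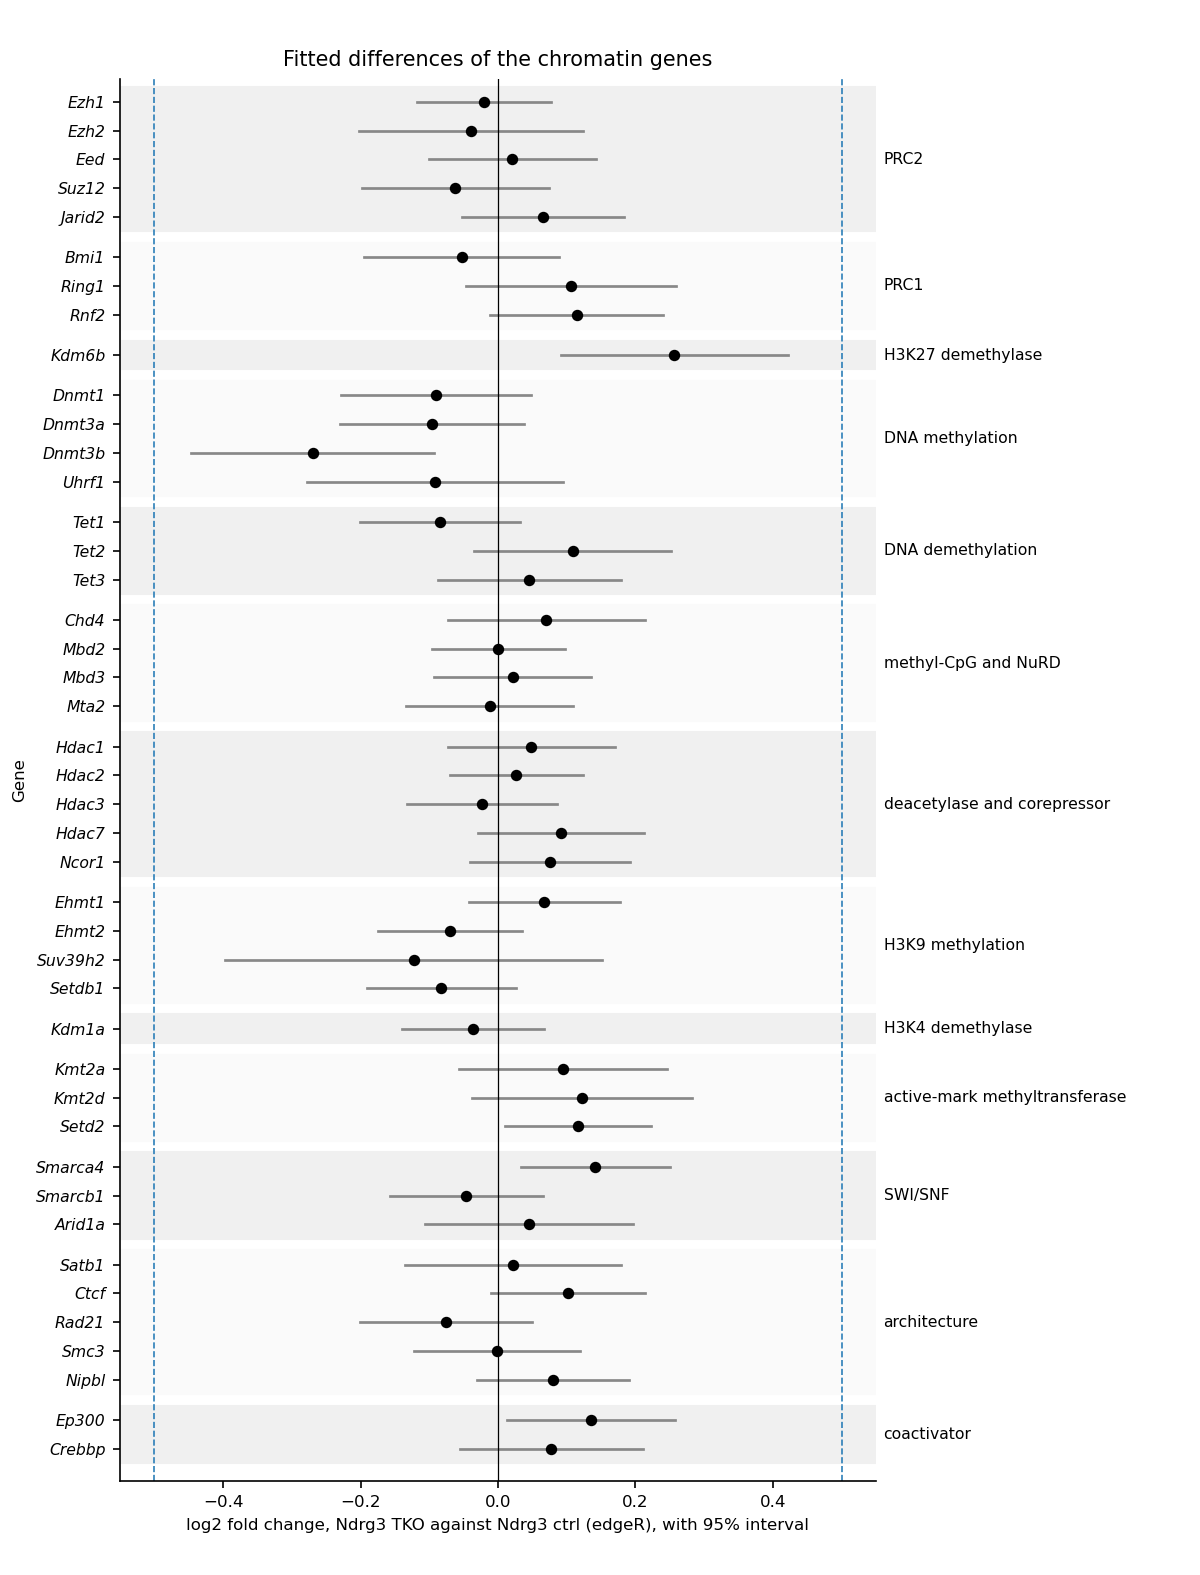
Fitted log2 fold change (x axis, Ndrg3 TKO against Ndrg3 ctrl, edgeR) of each of the 43 genes, grouped by role, with the 95% interval as a line. All intervals lie between the dashed lines at −0.5 and 0.5, with Kdm6b farthest to the right and Dnmt3b farthest to the left.

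A list of 6 genes that were nearly silent in control cells rose in Ndrg3 TKO on a much larger scale. Tppp, a tubulin-binding protein gene on chromosome 13, had normalized counts of 16.5, 5.69, 10.8 and 8.47 in the Ndrg3 ctrl libraries and 452, 389, 374 and 396 in the Ndrg3 TKO libraries (log2 fold change 5.21, standard error 0.192, adjusted p = 1.92e-09, edgeR). Tcrg-C2, a constant gene of the T cell receptor gamma locus, had 42.7, 34.1, 21.6 and 14.8 in Ndrg3 ctrl against 842, 824, 1180.3 and 747 in Ndrg3 TKO (log2 fold change 4.99, standard error 0.251, adjusted p = 3.51e-06). The groups of both genes lay far apart. With Tcrg-C1, Tcrg-C3, Tcrg-C4 and Trgv2, all 6 passed the test, and the list was drawn up with these changes known. The filter on low counts needs enough counts in as many libraries as a group holds. Tppp, Trgv2 (8.73, 18.5, 8.82 and 9.53 in Ndrg3 ctrl) and Tcrg-C3 (2.91, 7.11, 2.94 and 3.18) met it only through their high Ndrg3 TKO libraries. That these genes were tested and passed is thus not independent of their rise. Their summed level was 3.24 to 4.36 CPM in Ndrg3 ctrl against 65.7 to 90.1 CPM in Ndrg3 TKO. The Tcrg-C genes are similar copies of each other, so the split of reads among them is uncertain. Of the 6 gamma delta T cell markers, 3 were under 1 CPM in every library and 0 passed the test, with a summed level of 14.2 to 18.4 CPM in Ndrg3 ctrl and 15.7 to 24.2 CPM in Ndrg3 TKO. Cd163l1 had 49.5, 39.8, 71.5 and 98.4 normalized counts in Ndrg3 ctrl and 198, 119, 102 and 318 in Ndrg3 TKO, without overlap (log2 fold change 1.49, unadjusted p = 0.00777, adjusted p = 0.216, edgeR), and Trdc, the delta constant gene, had a log2 fold change of −0.03 (95% interval −0.29 to 0.22). Their part in the rise of the gamma locus genes was not tested.

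Most of the promoters of the 43 genes are of the CpG-rich kind. Windows of 250 bases before a start site (RefSeq, GRCm38.p6) were at hand for 37 genes, 54 windows in all. A window held a median of 22.5 CpG, against 6 in the 32851 windows of all genes. By a GC content over 50% and an observed to expected CpG ratio over 0.6, 43 of the 54 windows (79.6%) were CpG rich, against 30.8% of all. The windows of all genes were not limited to the tested genes, unlike the other backgrounds given here, and genes of like level were not compared. The GC box, searched as GGGCGG on both strands, occurred in 40 of the 54 (74.1%), against 32.7% of all windows of this length. Both genes whose groups did not overlap, Dnmt3b and Smarca4, had such promoters, and they are shown with that of Tppp, the gene of the nearly silent list that rose most, with CpG sites in capitals. The Tppp window, at an observed to expected ratio of 0.594, falls just short of the CpG-rich rule. Dnmt3b holds 21 CpG (chr2:153649199-153649448, plus strand), Smarca4 holds 25 (chr9:21615919-21616168, plus strand) and Tppp holds 19 (chr13:74009169-74009418, plus strand).
Dnmt3b: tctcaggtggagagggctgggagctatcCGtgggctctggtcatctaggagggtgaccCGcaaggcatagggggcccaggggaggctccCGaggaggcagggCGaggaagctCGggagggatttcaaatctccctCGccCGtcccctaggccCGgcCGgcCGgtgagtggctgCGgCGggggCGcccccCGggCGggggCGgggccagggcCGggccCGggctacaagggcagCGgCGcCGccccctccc
Smarca4: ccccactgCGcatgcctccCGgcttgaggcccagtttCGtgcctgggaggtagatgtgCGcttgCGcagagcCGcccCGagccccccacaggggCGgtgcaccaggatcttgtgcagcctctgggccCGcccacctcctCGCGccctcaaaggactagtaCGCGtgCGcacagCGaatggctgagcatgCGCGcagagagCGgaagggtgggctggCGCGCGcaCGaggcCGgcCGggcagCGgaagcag
Tppp: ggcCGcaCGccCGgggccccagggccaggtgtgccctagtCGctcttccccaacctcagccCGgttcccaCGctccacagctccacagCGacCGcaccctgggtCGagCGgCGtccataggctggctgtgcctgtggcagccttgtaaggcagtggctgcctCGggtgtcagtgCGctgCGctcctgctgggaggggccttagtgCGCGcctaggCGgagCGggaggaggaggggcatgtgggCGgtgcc
The letters give no methylation state, which was not measured in these samples.

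Levels of the 43 genes spanned a ratio of 87.6 when set per length, in TMM-scaled CPM per kilobase of exon. The median level was 32.1, against 6.12 over all tested genes. The highest levels were those of the remodeller Chd4 (107 ± 5.63 in Ndrg3 ctrl against 112 ± 7.54 in Ndrg3 TKO, mean ± SD, n = 4 each), the genome organizer Satb1 (99.7 ± 5.82 and 101 ± 7.01), the H3K4 methyltransferase Kmt2d (89.3 ± 8.21 and 97.2 ± 3.29), the SWI/SNF subunit Arid1a (86.6 ± 6.00 and 89.3 ± 5.52) and the class IIa deacetylase Hdac7 (80.3 ± 4.94 and 85.6 ± 1.25). Each of these overlapped with the next in its range of mean ± SD, in both groups, so the order of neighbours does not exceed their spread. The lowest levels were those of the H3K9 methyltransferase Suv39h2 (1.3 ± 0.0883 and 1.19 ± 0.158) and of Dnmt3b (3.75 ± 0.359 and 3.11 ± 0.110), followed by Ring1 (7.28 ± 0.545 and 7.82 ± 0.309).

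**Figure D2:**
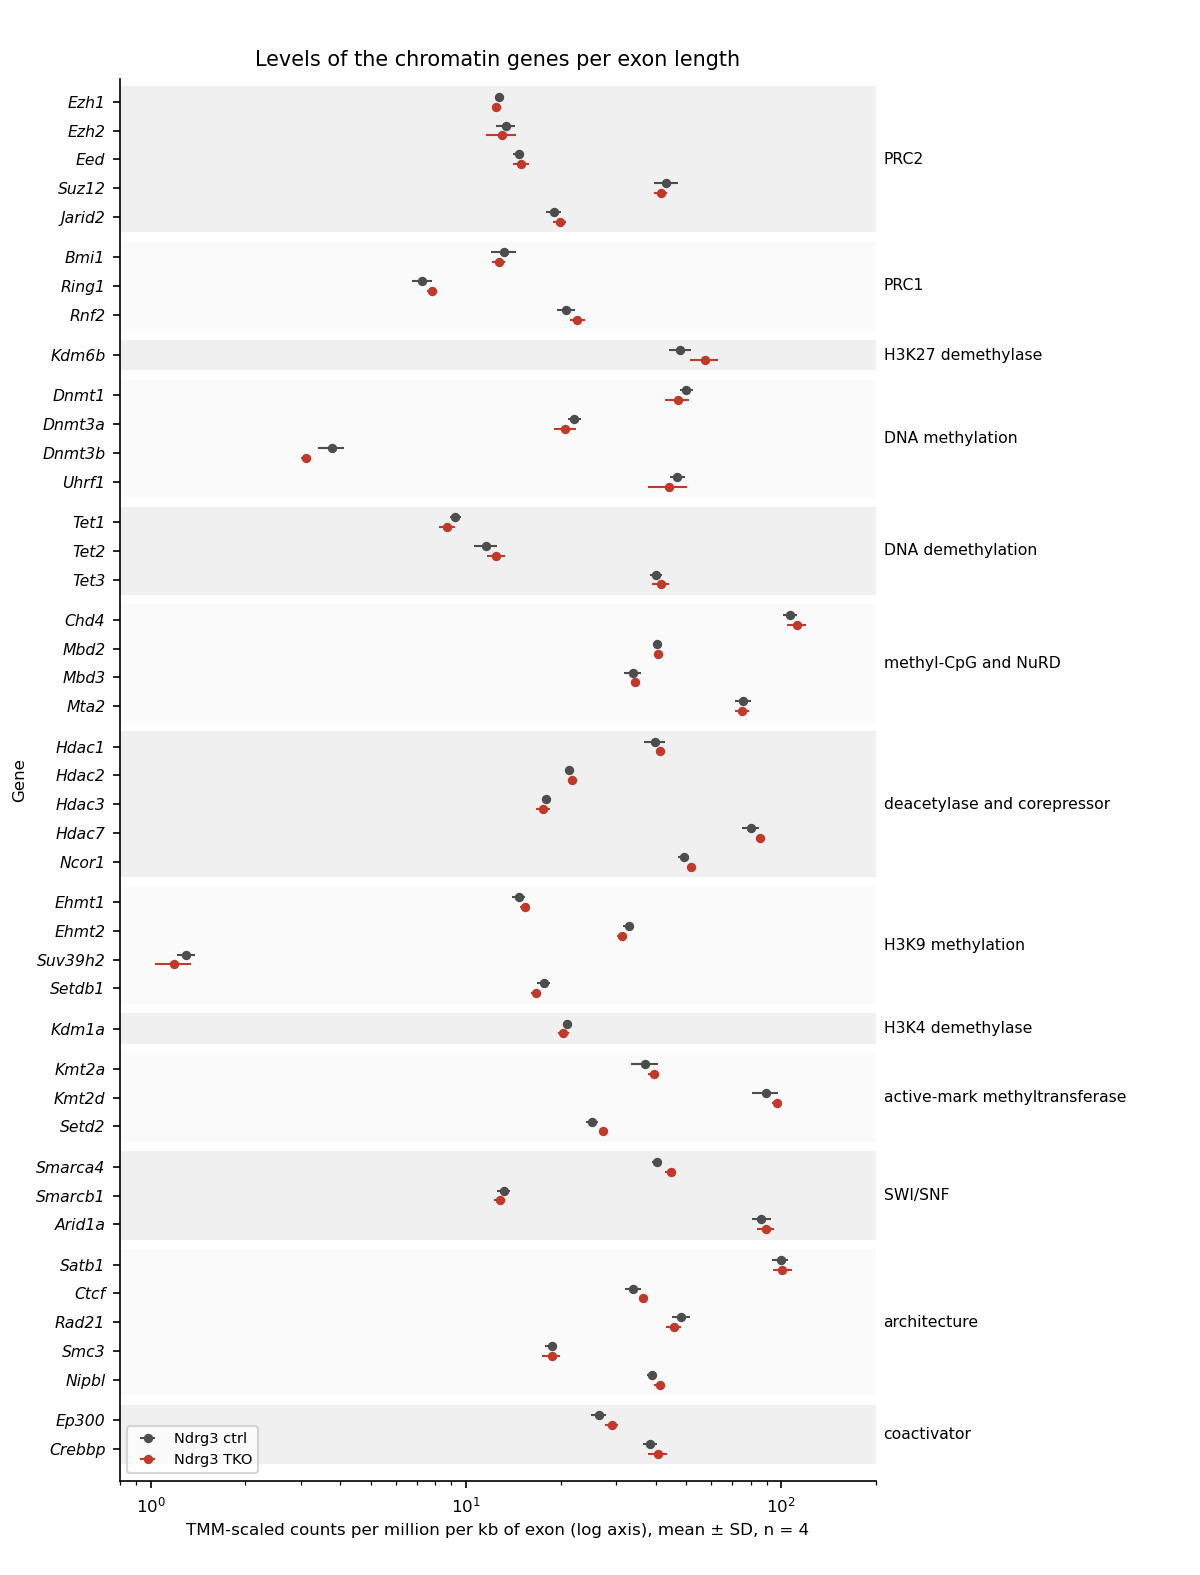
Level of each gene in CPM per kilobase of exon (x axis, log scale) as mean ± SD of 4 libraries, in grey for Ndrg3 ctrl and in red for Ndrg3 TKO. On this axis the symbols of both groups lie close together for most genes, from Suv39h2 near 1.3 to Chd4 above 100. They lie farther apart for Dnmt3b (3.75 ± 0.359 in Ndrg3 ctrl, 3.11 ± 0.11 in Ndrg3 TKO) and Kdm6b (47.9 ± 3.92 and 57.3 ± 5.78).

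PRC2, the complex that methylates H3K27, was followed through the transcripts of 5 genes, and none of them passed the test. Ezh2, its main catalytic subunit in dividing cells, had normalized counts of 2557, 2358, 2675 and 2766 in Ndrg3 ctrl against 2687, 2483, 2146 and 2768 in Ndrg3 TKO. The groups overlapped, with the lowest value in Ndrg3 TKO replicate 3, and the log2 fold change was −0.04 (95% interval −0.20 to 0.12). Ezh1, the alternative catalytic subunit of resting cells, stood at 2739.6 ± 48.9 in Ndrg3 ctrl against 2701 ± 76.5 in Ndrg3 TKO (log2 fold change −0.02, 95% interval −0.12 to 0.08). Per kilobase of exon the Ezh1 and Ezh2 transcripts were nearly equal, at a ratio of 0.953 ± 0.0626 in Ndrg3 ctrl against 0.969 ± 0.093 in Ndrg3 TKO (SD, n = 4). Among the core partners, Eed, which reads the mark, had a log2 fold change of 0.02 (−0.10 to 0.14) and Suz12, a scaffold, one of −0.06 (−0.20 to 0.07). Jarid2, an accessory subunit that helps recruit the complex, had one of 0.07 (−0.05 to 0.18). All PRC2 bounds thus lay between −0.20 and 0.18.

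PRC1, which binds the H3K27 mark and ubiquitinates histone H2A, was represented by 3 genes. Rnf2, the main E3 ligase, had a log2 fold change of 0.11 (95% interval −0.01 to 0.24, adjusted p = 0.516, edgeR) and Ring1, its paralogue, one of 0.11 (−0.05 to 0.26). Ring1 stood at 683 ± 51.2 normalized counts in Ndrg3 ctrl against 734 ± 29.0 in Ndrg3 TKO, and Rnf2 at 2488 ± 165 and 2693 ± 146, and in both genes the groups overlapped. Bmi1, a Polycomb ring finger partner of both ligases, had 1513 ± 137 and 1457 ± 66.4 (log2 fold change −0.05, 95% interval −0.19 to 0.09).

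Kdm6b encodes JMJD3, which removes the H3K27 mark, and it had the largest positive value of the 43. Its normalized counts were 9554, 10144, 10316 and 8566 in the Ndrg3 ctrl libraries and 12745, 11652, 11753 and 9944 in the Ndrg3 TKO libraries. Of the Ndrg3 TKO libraries 3 lay above all controls, while replicate 4 lay within their range. The log2 fold change was 0.26 (standard error 0.0768, 95% interval 0.09 to 0.42) with an unadjusted p of 0.00484 and an adjusted p of 0.170 (edgeR), so it did not pass the test, although it did with no filter on low counts (adjusted p = 0.0344). Kdm6b lies on chromosome 11 (GRCm38, 69398508 to 69413675) and shares 4.11% of its exonic bases with the antisense gene Kdm6bos, which had a mean raw count of 3.38.

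The DNA methylation genes were fitted lower in 4 of 4, without a call in the main fit. Dnmt3b, a de novo methyltransferase, had normalized counts of 499.8, 617, 523 and 578 in Ndrg3 ctrl against 471, 465, 435 and 465 in Ndrg3 TKO. Every Ndrg3 TKO library lay below every control, at a log2 fold change of −0.27 (standard error 0.0827, 95% interval −0.45 to −0.09), with an unadjusted p of 0.00561 and an adjusted p of 0.184 (edgeR). It was a gene of low abundance. Per kilobase of exon, Dnmt3a stood at 5.94 ± 0.655 times its level in Ndrg3 ctrl and at 6.67 ± 0.553 times in Ndrg3 TKO (SD, n = 4), with overlapping ranges. It lies on chromosome 2 (153649450 to 153687730), 3.24 Mb from the targeted gene Ndrg3. Of the 57 tested genes between both, 0 passed the adjusted threshold, where 1.15% of all tested genes did. An unadjusted p under 0.05 was found for 3 of the 57, against 10.9% of all tested genes, and their median log2 fold change over the 57 was −0.0020.

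The other de novo enzyme, Dnmt3a, stood at 10667 ± 487 in Ndrg3 ctrl against 9978 ± 811 in Ndrg3 TKO (log2 fold change −0.10, 95% interval −0.23 to 0.04). Dnmt1, the maintenance enzyme that copies the mark after replication, had 10349.6, 11423, 10361 and 10579 in Ndrg3 ctrl against 10277, 11079.7, 8964 and 9796 in Ndrg3 TKO (log2 fold change −0.09, −0.23 to 0.05). Uhrf1, which brings Dnmt1 to newly replicated DNA, had 5529.5, 6156, 5533 and 5924 in Ndrg3 ctrl against 5256, 6266, 4464 and 5722 in Ndrg3 TKO (log2 fold change −0.09, −0.28 to 0.09). In Dnmt1, Uhrf1 and Dnmt3b, as in Ezh2, the lowest library of all 8 was Ndrg3 TKO replicate 3. Without that library the log2 fold changes were −0.04 for Dnmt1, −0.0090 for Uhrf1, −0.25 for Dnmt3b and 0.03 for Ezh2. A list of 18 proliferation genes was lowest in the same library. Its summed level was 2359, 2554, 2339.8 and 2565 CPM in Ndrg3 ctrl against 2215, 2452, 1883 and 2380.3 CPM in Ndrg3 TKO (exact permutation test of the sums, 2-sided, p = 0.171, where the smallest p this design allows is 0.0286; 0.386 after adjustment over the 18 list sums compared). Of these proliferation genes 18 of 18 had a fitted value below 0, with a median log2 fold change of −0.13 and 0 passing the adjusted threshold, and their part in the values of Dnmt1, Uhrf1, Dnmt3b and Ezh2 was not tested.

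The TET enzymes, which oxidize methylated cytosine on the way to its removal, did not share a direction. Tet3 was the most abundant, at 3.49 ± 0.317 times Tet2 and 4.34 ± 0.149 times Tet1 per kilobase in Ndrg3 ctrl, and 3.34 ± 0.342 and 4.75 ± 0.25 times in Ndrg3 TKO (SD, n = 4). The log2 fold changes were −0.08 for Tet1 (95% interval −0.20 to 0.03), 0.11 for Tet2 (−0.03 to 0.25) and 0.05 for Tet3 (−0.09 to 0.18). The ratio of Tet2 to Tet1 was 1.17, 1.14, 1.36 and 1.33 in Ndrg3 ctrl against 1.39, 1.3, 1.54 and 1.5 in Ndrg3 TKO. The highest controls lay between the lowest Ndrg3 TKO values, and the groups of each of the 12 ratios of related genes overlapped.

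**Figure D3:**
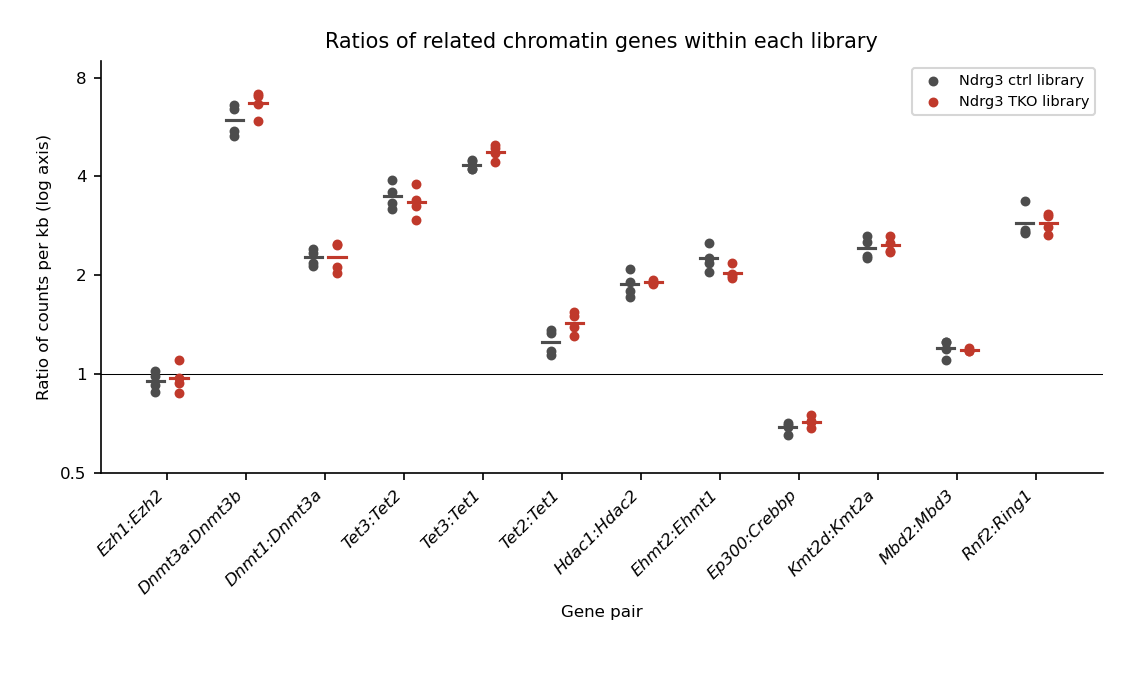
Ratio of counts per kilobase of exon between related genes (y axis, log scale) in each library, grey for Ndrg3 ctrl and red for Ndrg3 TKO, with the group mean as a bar. The 12 ratios overlap between the groups, with the largest for Dnmt3a to Dnmt3b at 5.29 to 7.12 and the only means under 1 for Ezh1 to Ezh2 and Ep300 to Crebbp.

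Proteins that act on methylated DNA and the NuRD complex, which joins a remodeller to deacetylases, had fitted differences close to 0. Mbd2, the methyl-CpG reader of NuRD, stood at 3772 ± 97.5 in Ndrg3 ctrl against 3773 ± 76.2 in Ndrg3 TKO (log2 fold change 0.0005, 95% interval −0.10 to 0.10). Its paralogue Mbd3 had 1951 ± 122 and 1979 ± 33.4 (log2 fold change 0.02, −0.09 to 0.14), and Mta2, a scaffold of the complex, 8981 ± 525 and 8903 ± 473 (−0.01, −0.13 to 0.11). Chd4, its ATPase, had 24745 ± 1307 and 25984 ± 1750.2 (0.07, −0.07 to 0.21).

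The class I deacetylases Hdac1, Hdac2 and Hdac3, the catalytic parts of the NuRD, Sin3, CoREST and NCoR complexes, had log2 fold changes of 0.05 (95% interval −0.07 to 0.17), 0.03 (−0.07 to 0.12) and −0.02 (−0.13 to 0.09). Hdac1 exceeded Hdac2 per kilobase by a ratio of 1.87 ± 0.163 in Ndrg3 ctrl against 1.90 ± 0.0241 in Ndrg3 TKO. Hdac7, a class IIa deacetylase abundant in thymocytes, had 14427, 15490.5, 16525 and 16377 normalized counts in Ndrg3 ctrl against 17010.1, 16634, 16841 and 16448 in Ndrg3 TKO. A single control, replicate 3, lay within the range of the Ndrg3 TKO libraries, and the log2 fold change was 0.09 (−0.03 to 0.21, adjusted p = 0.597, edgeR). Ncor1, the corepressor that carries HDAC3, had 18187 ± 694 and 19171 ± 565 (0.08, −0.04 to 0.19).

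H3K9 methylation was represented by 4 genes, of which 3 were fitted lower. Ehmt1 and Ehmt2 encode GLP and G9a, which work as a pair. Ehmt2 had 5226 ± 209.9 in Ndrg3 ctrl against 4977 ± 167 in Ndrg3 TKO (log2 fold change −0.07, 95% interval −0.18 to 0.04), while Ehmt1 had 3450.2 ± 173 and 3617 ± 127 (0.07, −0.04 to 0.18). The ratio of Ehmt2 to Ehmt1 per kilobase was 2.25 ± 0.198 in Ndrg3 ctrl against 2.04 ± 0.0984 in Ndrg3 TKO, with overlapping ranges. Setdb1, which silences transposable elements among its targets, had 3506 ± 166 and 3309.9 ± 113 (−0.08, −0.19 to 0.03). Suv39h2 was too scarce for a narrow interval, at 166 ± 11.3 and 152 ± 20.2 (−0.12, −0.40 to 0.15). It shares 8.1% of its exonic bases with Dclre1c, which lies on the opposite strand and had a mean raw count of 1148. Kdm1a, the LSD1 demethylase that removes H3K4 methylation within CoREST, had 3139 ± 95 and 3061 ± 121 (−0.04, −0.14 to 0.07).

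The methyltransferases of active chromatin were fitted higher in 3 of 3, again without a call. Setd2, which places H3K36 trimethylation along transcribed genes, had normalized counts of 7638, 7496, 8259 and 7851 in Ndrg3 ctrl against 8787, 8549.9, 8356 and 8182 in Ndrg3 TKO. Only the control of replicate 3 reached into the Ndrg3 TKO range, and the log2 fold change was 0.12 (standard error 0.0495, 95% interval 0.01 to 0.22) with an unadjusted p of 0.0337 and an adjusted p of 0.407 (edgeR). Kmt2d, an H3K4 methyltransferase of enhancers, had a log2 fold change of 0.12 (−0.04 to 0.28), and Kmt2a, known as MLL1, one of 0.10 (−0.06 to 0.25). In Kmt2a the control of replicate 1 was the lowest library, at 15328, and the others ranged from 17922 to 19526.

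The SWI/SNF remodeller, which opens chromatin and opposes Polycomb, was followed through the transcripts of 3 genes, none of which passed the test in the main fit. Smarca4 encodes the ATPase BRG1, and its normalized counts were 7288, 7859.7, 7803 and 7349 in Ndrg3 ctrl against 8753, 8444, 8271 and 7958 in Ndrg3 TKO. Every Ndrg3 TKO library lay above every control, by a small margin, at a log2 fold change of 0.14 (standard error 0.0503, 95% interval 0.03 to 0.25), with an unadjusted p of 0.0136 and an adjusted p of 0.283 (edgeR). The core subunit Smarcb1 had 3021 ± 146 and 2928 ± 121 (−0.05, −0.16 to 0.07), and Arid1a, the DNA-binding subunit of the BAF form, 28749 ± 1994 and 29663 ± 1834 (0.05, −0.11 to 0.20). Whether Smarca4 differed from its partners was not tested. Smarca4 and Dnmt3b were the only members whose groups did not overlap, 2 of 43 or 4.65%, where this was so in 7.04% of all tested genes, 3.44% with higher and 3.59% with lower values in Ndrg3 TKO.

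**Figure D4:**
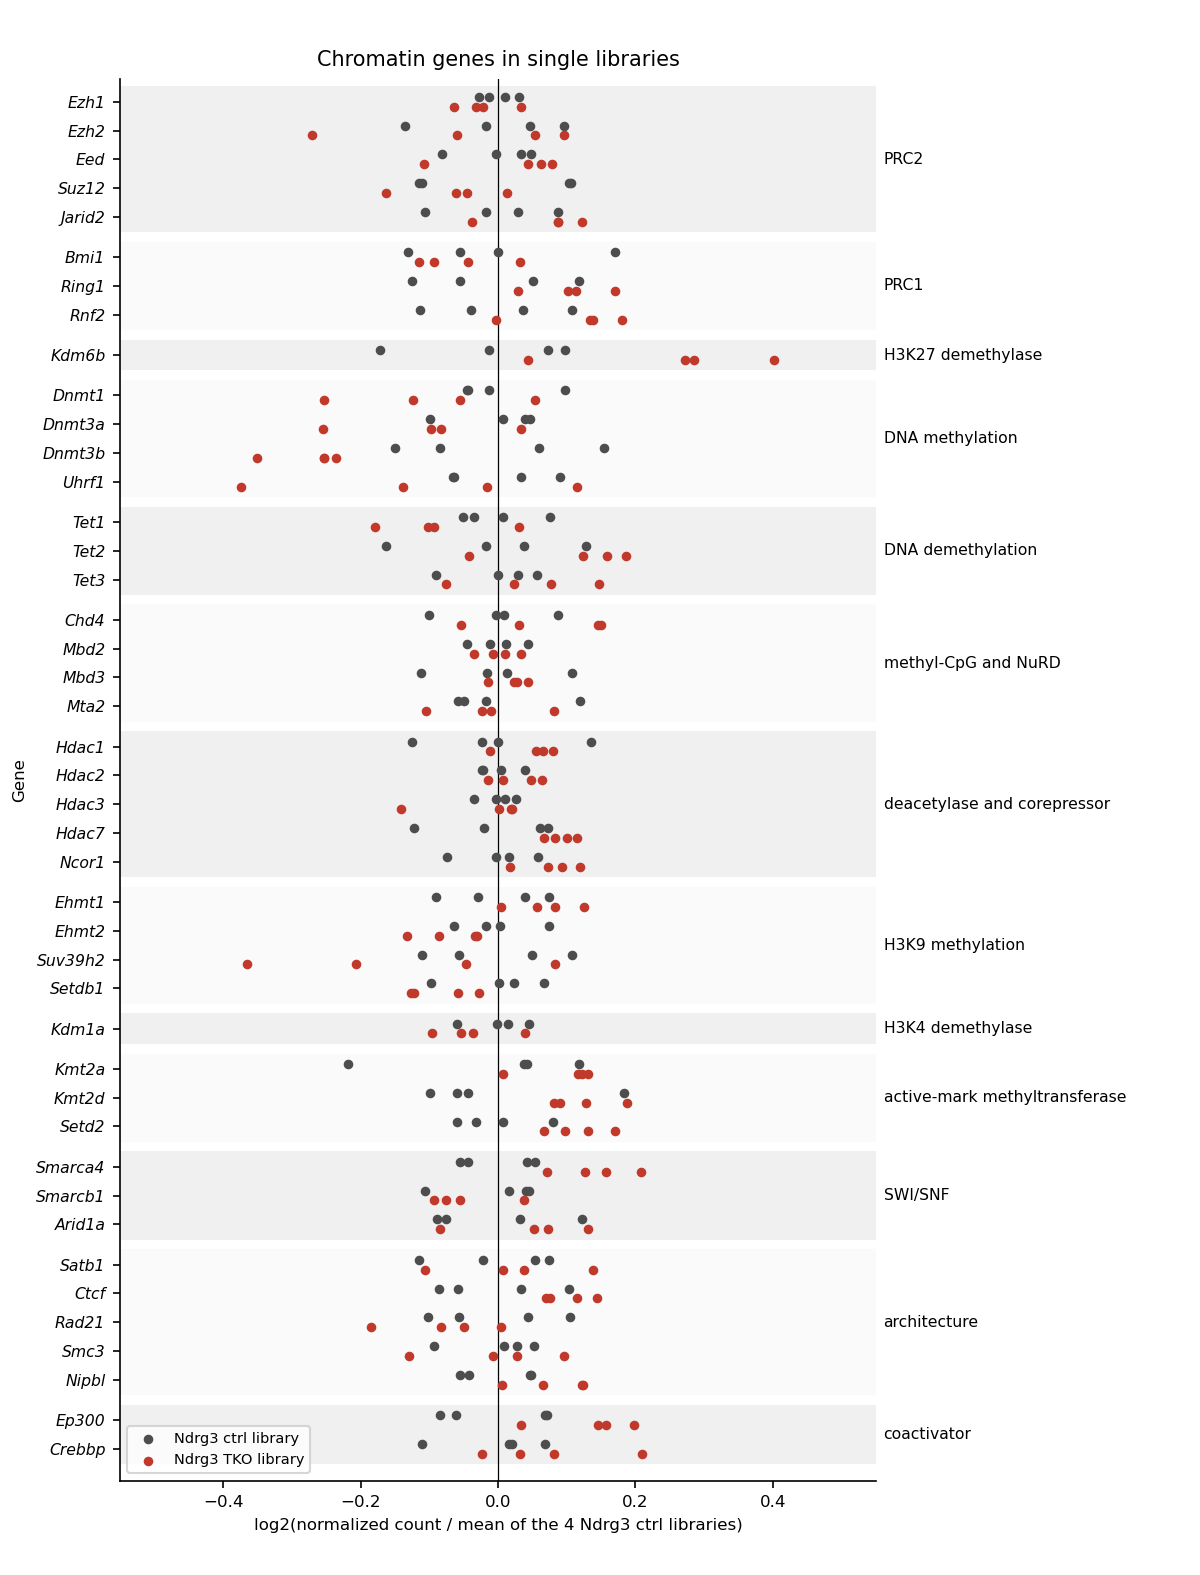
Each library's normalized count relative to the mean of the 4 Ndrg3 ctrl libraries, on a log2 scale (x axis), for the 43 genes grouped by role, with grey points for Ndrg3 ctrl and red points for Ndrg3 TKO. Red and grey points mix in nearly every row, and only in Dnmt3b and Smarca4 do they not overlap.

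Genes of chromosome architecture were followed through the transcripts of Ctcf, Satb1 and 3 cohesin genes, and none of these passed the test. Ctcf, the insulator protein, had 5129, 4888, 4503 and 4587 normalized counts in Ndrg3 ctrl against 5172, 5278, 5033 and 5014 in Ndrg3 TKO. The control of replicate 1 lay among the Ndrg3 TKO libraries, and the log2 fold change was 0.10 (95% interval −0.01 to 0.21, unadjusted p = 0.0726, adjusted p = 0.516, edgeR). Satb1, which folds chromatin at genes of the T cell lineage, had 54901 ± 3207 and 55743 ± 3859.6 (0.02, −0.14 to 0.18). Of the cohesin genes, the ring subunits Rad21 and Smc3 had log2 fold changes of −0.08 (−0.20 to 0.05) and −0.0009 (−0.12 to 0.12), and the loader Nipbl one of 0.08 (−0.03 to 0.19).

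The histone acetyltransferases that act as coactivators were fitted higher in both genes. Ep300 had normalized counts of 10442, 11443, 11424 and 10276 in Ndrg3 ctrl against 12504, 12057, 12149.7 and 11149 in Ndrg3 TKO. Ndrg3 TKO replicate 4 lay below the upper controls, and the log2 fold change was 0.14 (standard error 0.0572, 95% interval 0.01 to 0.26) with an unadjusted p of 0.0330 and an adjusted p of 0.404 (edgeR). Its paralogue Crebbp, which encodes CBP, had 15065 ± 786 and 15896 ± 1109 (0.08, −0.06 to 0.21), and the ratio of Ep300 to Crebbp per kilobase was 0.686 ± 0.0257 in Ndrg3 ctrl against 0.715 ± 0.0275 in Ndrg3 TKO.

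The wider chromatin machinery was examined through 7 further lists with 176 other genes, of which 170 were tested. Chd3 alone passed the adjusted threshold, 1 of 170 or 0.588%, against 1.15% of all tested genes. By unadjusted p under 0.05, 20 (11.8%) were higher and 8 (4.71%) lower in Ndrg3 TKO, where 5.34% and 5.51% of all tested genes were, and the groups did not overlap in 13 (7.65%, against 7.04% of all). Their median log2 fold change was 0.02. The other Polycomb genes had 7 higher and 0 lower of 29 tested at this unadjusted level, the other remodeller and NuRD genes 5 and 2 of 29, the other deacetylase and corepressor genes 3 and 2 of 24, and the other histone methylation genes 3 and 1 of 36. For the other DNA methylation genes there were 1 and 1 of 12, for the other cohesin and architecture genes 1 and 1 of 21, and for the other coactivators 0 and 1 of 19.

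Chd3, a NuRD ATPase related to Chd4, had normalized counts of 16843, 17407, 17873 and 16264 in Ndrg3 ctrl against 21705, 20609, 22084 and 19774 in Ndrg3 TKO. The groups did not overlap, and the log2 fold change was 0.30 (standard error 0.0583, 95% interval 0.17 to 0.42, adjusted p = 0.0217, edgeR's quasi-likelihood test). The call did not hold without Ndrg3 ctrl replicate 1 (adjusted p = 0.0847), without Ndrg3 ctrl replicate 4 (0.0887), without Ndrg3 TKO replicate 1 (0.0900) or without Ndrg3 TKO replicate 3 (0.106), nor among the 5 libraries without Y-linked counts (0.159), while the log2 fold change stayed between 0.28 and 0.33. Its paralogue Chd4 had a log2 fold change of 0.07 (95% interval −0.07 to 0.21), and the difference between both was not tested. Chd3 and Kdm6b are close neighbours on chromosome 11, with 29.1 kb between them. The 3 tested genes that lie there had a median log2 fold change of 0.04 and 0 passed the adjusted threshold, where 1.15% of all tested genes did.

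**Figure D5:**
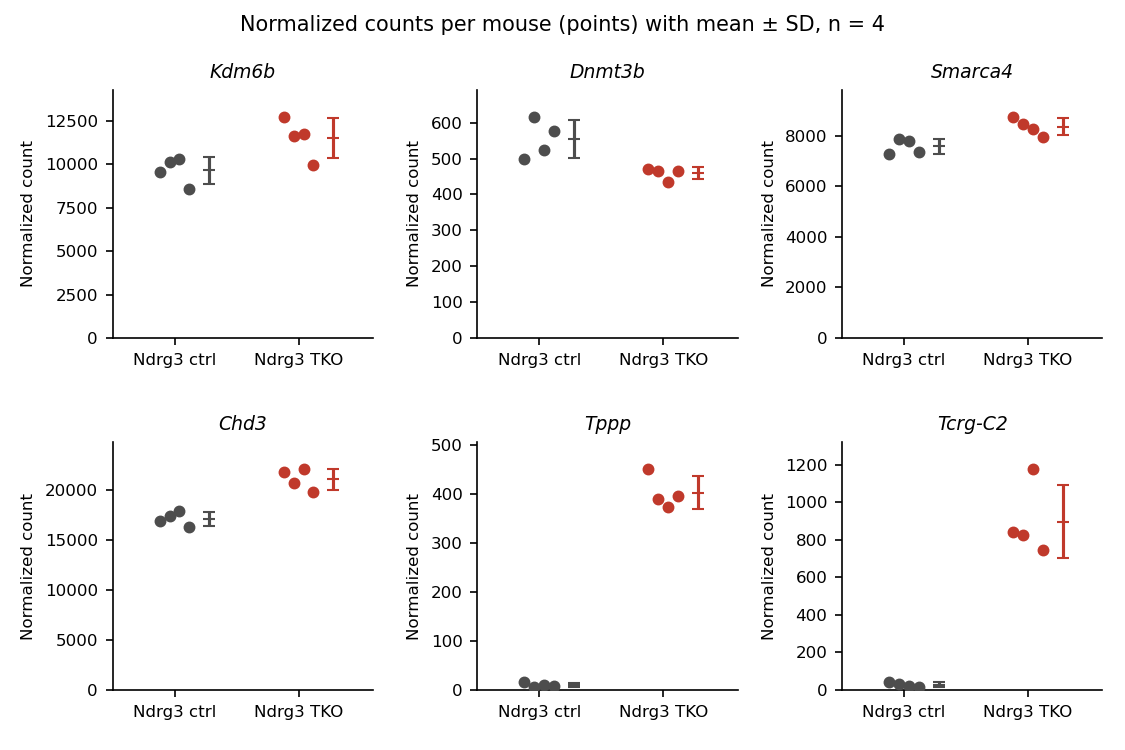
Normalized counts (y axis, from 0) of Kdm6b, Dnmt3b, Smarca4, Chd3, Tppp and Tcrg-C2 in each mouse as points, with mean ± SD of 4 at the right of each group. Kdm6b, Dnmt3b, Smarca4 and Chd3 differ by at most 0.30 in size on the log2 scale, while Tppp and Tcrg-C2 go from at most 42.7 to at least 374.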

How the data were processed

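RNA-seq was available for 4 Ndrg3 ctrl and 4 Ndrg3 TKO libraries from a stranded total RNA kit with ribosomal RNA depletion. Per the labels, the authors used cutadapt, STAR and featureCounts with GRCm38.p4, and they deposited raw counts per gene. The strand setting and the handling of reads with several matches are not given in the sources used here. Library groups and numbers came from the labels. Gene symbols and exonic lengths came from GENCODE M21 (GRCm38), and 98.7% of the 47937 identifiers matched.

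Counts were filtered with filterByExpr, scaled by TMM and tested with edgeR 4.0.16 in R 4.3.3 (glmQLFit with robust estimation, glmQLFTest, 2-sided, Benjamini-Hochberg over the 14633 tested genes, threshold 0.05). DESeq2 1.42.0 was an alternative. The standard error was taken as the size of the log2 fold change over the square root of F. Normalized counts are TMM-scaled CPM times the mean library total. Intervals of log2 fold changes use the test's degrees of freedom. The floor of 3 counts covers counting error only. Replicates of a group differed by a chi-square of 9.26 to 32.3 per gene, so no library was a repeat of another. The procedure was tested on simulated counts. Other alternatives covered scaling, the filter, the likelihood ratio test, the replicate number as a block, a sex term and each library left out; the use of only the libraries without Y-linked counts was chosen after seeing the data, as were the stretches between neighbouring genes.

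All 43 genes are named. Beside them, named genes were limited to Ndrg3, the silent genes that rose, and members of the other chromatin lists that passed the threshold. The markers of immature thymocytes and of other cells were named after their values were seen. Members and lists were chosen with earlier results of these data known, so no p is given over the list.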

Additional observations from a re-analysis of the deposited data

Results flagged for a closer look

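Of 94 groups of 4 libraries checked for a single library far from the others (Dixon's test), 4 were flagged, where chance at 1 in 20 gives 4.7. Hdac3 stood at 1908 normalized counts in Ndrg3 TKO replicate 1, below the other Ndrg3 TKO libraries at 2105 to 2132. Kmt2a stood at 17922 in Ndrg3 TKO replicate 2, below 19331 to 19526 in the others. The mitochondrial share of counts was 0.636% in Ndrg3 ctrl replicate 4, against 0.803% to 0.82% in the other controls. Y-linked counts were 340.5 CPM in Ndrg3 ctrl replicate 2 and at most 0.0752 CPM in the other controls.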

How the results depend on the processing

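Of 731 values of single genes under 17 alternatives, 703 kept their direction and side of the threshold and 4 newly passed it. The other 24, in 10 genes, changed sign, each to a size of at most 0.0397. The number of tested genes called was 168 and became 309 with DESeq2, 274 with no filter on low counts, 285 with the likelihood ratio test, 437 with a sex term and 92 among the libraries without Y-linked counts, and it ran from 90 to 158 with a library left out (lowest without Ndrg3 TKO replicate 3). The share of calls that were higher was 69% and became 60.8% with DESeq2, although 0 of the 43 genes were called by it. Replicate numbers were shared by the groups, but the labels do not say that they mark a litter or batch. Deviations of same-numbered libraries from their group means correlated from −0.0572 to 0.512, not all above 0.1, and 6 of 8 correlated best with their own number. The mean r was 0.271 for same-numbered and −0.0883 for differently numbered libraries. The main fit did not take them as pairs, and whether they are pairs cannot be told from these values. With the replicate block, 800 genes (5.47%) were called, 54.4% of them higher, and 3 of the 43: Kdm6b (0.25, adjusted p = 0.00141), Dnmt3b (−0.27, 0.0422) and Smarca4 (0.14, 0.0448). With no filter, 1.11% of all genes and 1 of the 43 were called, Kdm6b (0.26, adjusted p = 0.0344), and the groups did not overlap in 4 of the 43 (4.98% of all genes), Hdac7 and Setd2 joining Dnmt3b and Smarca4. With each library left out this number was 2 to 7, when 9.29% to 12.6% of all tested genes did not overlap, and the number called was 0. Among the 3 Ndrg3 ctrl and 2 Ndrg3 TKO libraries without Y-linked counts it was 12, against 25.6% of all tested genes. The median log2 fold change was 0.01 to 0.03 with a library left out. Signs changed for Smc3 (0.0042 by library totals, 0.0009 with no filter, 0.0004 with at least 10 counts in every library), Ezh2 (0.0124 with the sex term, 0.0340 without Y-linked libraries) and Hdac2 (−0.01 without Y-linked libraries). With a library left out they changed within −0.0131 to 0.0142 for Mbd2, −0.0137 to 0.0559 for Mbd3, −0.0348 to 0.0397 for Smc3, −0.0066 to 0.0611 for Eed, −0.0956 to 0.0046 for Bmi1, −0.0450 to 0.0273 for Mta2, −0.0193 to 0.0621 for Satb1, −0.0383 to 0.0128 for Hdac3 and −0.0869 to 0.0306 for Ezh2. The causes were not tested.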
